A study of Caenorhabditis elegans with 2 samples.

Results

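The regions described here were candidate binding regions of CEH-6 in Caenorhabditis elegans late embryos whose summit lay beside a CA dinucleotide repeat. They were chosen by sequence from the list of regions that the authors called on the pooled reads of both replicates. The authors labelled that list as peaks and background, the input to a later filtering step, so a region in it need not be a binding site. A region was taken if the 201 bp centred on its summit held at least 4 consecutive CA dinucleotides on either strand and no run of 4 consecutive GA dinucleotides on either strand. The rule took 864 of 29977 nuclear regions, or 2.88% (exact 95% interval 2.70 to 3.08). A further 103 regions held both repeats and were left out, and 997 regions held the GA repeat alone. The same rule took 793 of 29976 nuclear regions in the list of replicate 1 and 826 of 29981 in that of replicate 2.

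CEH-6 was pulled down with an anti-GFP antibody from sonicated chromatin of strain OP748, which carries the transgene wgIs748. That transgene encodes CEH-6 joined to TY1, EGFP and 3xFLAG tags, together with unc-119(+) in an unc-119(ed3) background, on VC2010. The 2 biological replicates were bleached, mixed-sex embryos with an age label of 3.3 hours, and they formed 1 group. The immunoprecipitated protein was the tagged transgene product, and no untagged strain, mutant or other stage was part of the design. The depth of the libraries is unknown, because the lists hold a signal per region and no read counts. Of the 30000 regions in each relaxed list, 741 of the pooled list were deposited again as the set kept by irreproducible discovery rate (IDR) filtering. These 741 IDR peaks, 718 of them nuclear, were the regions of highest pooled signal, so an IDR share is a statement about pooled signal.

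CEH-6 belongs to the POU family of transcription factors, which contact DNA through a POU-specific domain and a homeodomain and are known to bind an octamer sequence. In the worm it is known for its roles in the excretory canal cell, in rectal epithelial cells and in a set of neurons. CA repeats are microsatellites: tracts of alternating pyrimidine and purine bases that change length easily during replication and are common in animal genomes outside coding sequence.

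The windows of 6 members are shown because they represent the kinds of sequence behind the strongest signals: a long uninterrupted tract beside spat-3, sto-4 and mvk-1, short runs in unique sequence beside T24B8.3 and hmg-1.1, and a run next to a tRNA gene beside nhr-255. Each is the plus strand of WBcel235 (ce11) from the RefSeq copy of the assembly, 100 bp to each side of the summit. Capitals mark runs of at least 4 dinucleotides, read as CA or as its complement TG.
nhr-255, chrX:15741930-15742130: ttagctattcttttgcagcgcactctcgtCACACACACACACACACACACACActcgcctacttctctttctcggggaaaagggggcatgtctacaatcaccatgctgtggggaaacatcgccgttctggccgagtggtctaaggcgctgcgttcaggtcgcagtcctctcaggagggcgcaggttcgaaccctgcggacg
spat-3, chrX:4606387-4606587: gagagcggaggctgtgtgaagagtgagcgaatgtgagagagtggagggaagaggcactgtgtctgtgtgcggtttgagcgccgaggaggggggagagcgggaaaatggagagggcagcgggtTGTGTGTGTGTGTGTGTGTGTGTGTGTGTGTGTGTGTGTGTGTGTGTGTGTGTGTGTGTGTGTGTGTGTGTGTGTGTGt
sto-4, chrX:11643869-11644069: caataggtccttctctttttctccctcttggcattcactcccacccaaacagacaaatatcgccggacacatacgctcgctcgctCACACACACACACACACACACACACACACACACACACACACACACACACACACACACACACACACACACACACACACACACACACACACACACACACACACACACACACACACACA
T24B8.3, chrII:9060384-9060584: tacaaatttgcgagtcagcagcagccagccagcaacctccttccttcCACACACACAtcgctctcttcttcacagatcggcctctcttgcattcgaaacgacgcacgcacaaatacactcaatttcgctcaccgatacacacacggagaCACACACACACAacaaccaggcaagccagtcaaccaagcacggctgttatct
hmg-1.1, chrII:14250342-14250542: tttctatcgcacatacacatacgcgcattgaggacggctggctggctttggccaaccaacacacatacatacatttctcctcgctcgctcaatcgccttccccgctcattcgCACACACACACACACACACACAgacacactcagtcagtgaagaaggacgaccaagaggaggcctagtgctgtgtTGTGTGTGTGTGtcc
mvk-1, chrIII:6133413-6133613: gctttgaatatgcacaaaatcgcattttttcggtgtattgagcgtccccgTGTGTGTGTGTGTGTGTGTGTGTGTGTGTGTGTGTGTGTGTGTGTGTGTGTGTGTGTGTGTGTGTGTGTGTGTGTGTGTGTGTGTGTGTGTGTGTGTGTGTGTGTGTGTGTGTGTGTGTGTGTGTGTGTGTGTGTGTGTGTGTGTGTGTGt

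The windows of T24B8.3 and hmg-1.1 each held 2 separate runs, the longest of 6 and of 11 dinucleotides, set in sequence all of whose 32-mers occur once in the nuclear genome. In the hmg-1.1 window the runs lay on opposite strands. In the windows of spat-3, sto-4 and mvk-1 the tract ran on to the edge of the window, and in the assembly it measured 76, 86 and 80 dinucleotides. In these 3 windows 70.0%, 47.7% and 25.9% of 32-mers were unique. Over all members the part of the run inside the window ranged from 4 to 75 dinucleotides, and 394 of 864 members held a longest run of exactly 4. A second run of 4 or more was present in 71 members, or 8.22%.

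The strongest member lay 580 bp upstream of nhr-255, which encodes a nuclear hormone receptor, at chrX:15741944-15742149. Its signal was 325.3 in the pooled list, 143.3 in replicate 1 and 180.1 in replicate 2, which placed it 94th, 88th and 103rd among nuclear regions. The second, beside F42D1.4 at chrX:14804817-14804999, had a pooled signal of 283.7 and ranks of 118, 100 and 155 in the pooled list and in replicates 1 and 2. Both summits lay within 100 bp of a tRNA gene, and in both windows 67.7% of 32-mers were unique. Small RNA genes were rare beside the members as a set: 11 of 864 (1.27%, 0.637 to 2.27) had a gene for a tRNA, snoRNA, snRNA, rRNA or miRNA within 100 bp, against 2.01% of all nuclear regions. These were 6 tRNA, 3 snoRNA and 2 snRNA genes.

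The next members in order of signal lay on long tracts. An intronic region on chromosome I had a pooled signal of 278.6, a run of 43 in its window and no protein-coding transcript start within 5000 bp. Beside spat-3, which encodes a RING-domain protein related to the histone H2A ubiquitin ligases of Polycomb group complexes, 2 overlapping regions shared 1 tract of 76 dinucleotides. The region chrX:4606282-4606691 had a pooled signal of 267.1 and rank 129, and the region chrX:4606488-4606897 had 185.5 and rank 251. In replicate 1 a single region of rank 114 and signal 122.6 covered both summits, while replicate 2 had separate regions of ranks 152 and 216. The tract beside sto-4, a gene of the stomatin family of membrane proteins, likewise carried 2 regions, with pooled signals of 238.9 and 140.7. Both summits fell in 1 region in each replicate, at rank 161 in replicate 1 and 169 in replicate 2. Such pairs were found on 7 tracts, all of 15 or more dinucleotides, with summits 199 to 207 bp apart. The smallest distance between the summits of any consecutive regions in the list was also 199 bp, so the spacing is at the resolution of the list. Counting only the longest run of each window, the members thus lay on 857 distinct tracts.

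Among the members with short runs in unique sequence, T24B8.3 (chrII:9060279-9060688) had a pooled signal of 201.8, with 97.4 in replicate 1 and 112.2 in replicate 2. At hmg-1.1 (chrII:14250237-14250646), which encodes an HMG-box chromatin protein, the pooled signal was 191.5, with 69.2 in replicate 1 and 133.6 in replicate 2. Both were high in both lists, with ranks of 156 and 251 for T24B8.3 and 290 and 186 for hmg-1.1 in replicates 1 and 2. A promoter region of egl-30, the Gq alpha subunit, had a pooled signal of 175.8, and one of eat-16, an RGS protein that acts on Gq signalling, had 157.6. They ranked 361 and 446 in replicate 1, and 253 and 266 in replicate 2. The promoter of iff-2, a translation factor of the eIF5A family, had a pooled signal of 167.0 and that of sms-2, a sphingomyelin synthase, had 164.6. The region upstream of spc-1, alpha spectrin, had 159.7. A region 1026 bp upstream of ain-1, a GW182-family cofactor of microRNA silencing, had 181.4 and rank 229 in replicate 1, but no region of replicate 2 covered its summit. A second ain-1 member, chrX:16612421-16612830, had 142.1, and was covered by the same region of replicate 1 and by one of rank 230 and signal 117.5 in replicate 2.

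By signal, the members stood above the list as a whole, as did regions with GA repeats. Their median pooled signal was 47.8 (quartiles 37.2 to 67.9, range 28.9 to 325.3), against 40.4 over all nuclear regions, and their median rank was 9525 of 29977. Of the 864 members, 66 (7.64%, 5.96 to 9.62) were IDR peaks, where the background over all nuclear regions was 2.40%. The members' share was 3.19 times that background. The 2998 regions of highest signal held 218 members (25.2%, 22.4 to 28.3) against a background of 10%, and the 14989 of lowest signal held 298. Of the 66 IDR members, 39 (59.1%, 46.3 to 71.1) ranked between 371 and 718. Those ranks held 348 of the 718 nuclear IDR peaks. Regions with other repeats also stood above the list: 52 of 997 GA-repeat regions (5.22%, 3.92 to 6.78) and 8 of 103 regions with both repeats (7.77%, 3.41 to 14.7) were IDR peaks, and 20.8% and 34.95% of them were among the 2998 regions of highest signal. All intervals given here cover counting error only. Regions of 1 list are not replicates, and no test of the difference was run, since members and signals come from the same pooled reads.

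The share of regions that held the repeat was highest among strong regions short of the very strongest, as the plot of repeats by signal rank shows. Of all non-overlapping 201-bp windows of the nuclear genome, 1.06% met the rule. Among regions ranked 20001 to 29977 the share was 1.77%, and it was 3.20% at ranks 3001 to 6000, 5.80% at 1501 to 3000 and 8.31% at 719 to 1500. It was highest at ranks 186 to 370 with 11.9% (7.61 to 17.5) and at 371 to 718 with 11.2% (8.09 to 15). At ranks 1 to 185 it was 2.70%, or 5 regions. Small RNA genes lay beside most of those strongest regions: away from them, 3 of the 48 remaining regions at ranks 1 to 185 held the CA repeat (6.25%, 1.31 to 17.2), and 20 of 120 at ranks 186 to 370 (16.7%). The GA repeat had its highest shares lower down, with 8.33% at ranks 371 to 718 and 8.06% at 719 to 1500.

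**Figure D1:**
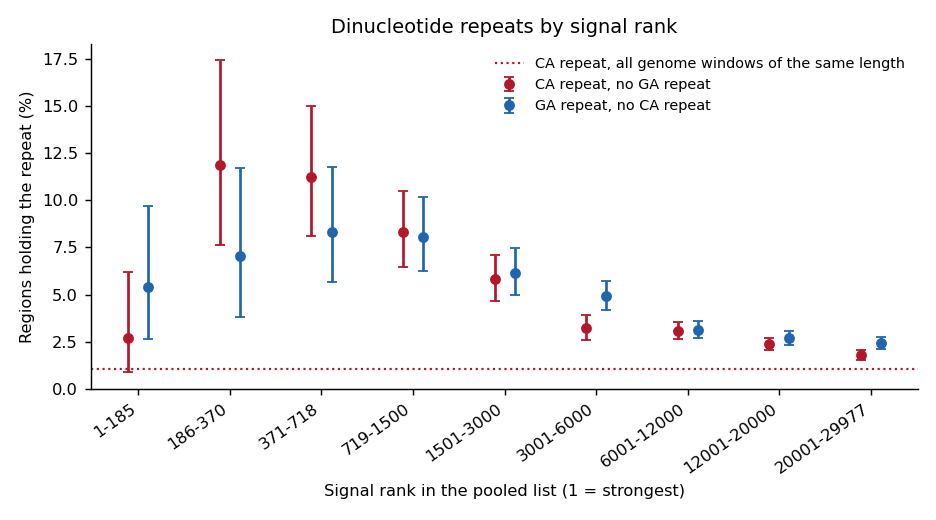
Share of nuclear regions holding the CA repeat (red) or the GA repeat (blue), in percent, in bins of pooled signal rank with the strongest at the left; bars are exact 95% intervals and the dotted line is the CA share of all 201-bp genome windows, 1.06%. The CA share is 11.9% and 11.2% at ranks 186 to 370 and 371 to 718 and 1.77% in the weakest bin.

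The median signal was highest in members with the longest runs and lay between 44.2 and 52.3 in the classes of shorter runs. Over the 864 members the rank correlation (Spearman) between run length and pooled signal was weak, 0.186, and over the 821 with runs of 4 to 14 it was 0.121. Just outside the rule, the 2930 regions whose longest CA run was exactly 3 had a median signal of 42.1, and 3.79% were IDR peaks. Just inside it, the 394 members with exactly 4 had a median of 44.2, and 17 (4.31%) were IDR peaks. The median was 49.4 in the 249 members with 5 or 6, 49.0 in the 132 with 7 to 9 and 52.3 in the 46 with 10 to 14. In these classes 19, 9 and 5 regions were IDR peaks, which is 7.63%, 6.82% and 10.9%. The 43 members with 15 or more stood apart, with a median signal of 82.2 (quartiles 54.7 to 129.5), a median rank of 1487 and 16 IDR peaks (37.2%, 23.0 to 53.3). Without them, 50 of 821 members (6.09%, 4.55 to 7.95) were IDR peaks. Run length here is that inside the window, so the 821 still include regions at the edge of long tracts. Examples are a second region beside mvk-1, with 5 of 80 dinucleotides in its window, and one beside Y55B1BR.8, with 8 of 63.

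The long-tract members ranked high in each replicate list on its own. In replicate 1, 11 of 39 such members (28.2%, 15 to 44.9) were among the 718 strongest nuclear regions, where the background was 2.40%. In replicate 2, 15 of 38 (39.5%, 24.0 to 56.6) were, where the background was 2.39%. Among regions with a longest run of exactly 4, 31 of 523 with a GA run (5.93%, 4.06 to 8.31) and 4.31% of the members (2.53 to 6.82) were IDR peaks. Long GA tracts had lower values than long CA tracts, a difference that was not tested. Of 46 regions with a GA run of 15 or more and no CA repeat, none was an IDR peak (exact 95% interval 0 to 7.71%), and their median signal was 47.9. Adding GA runs of 10 to 14 gave 0 of 76, with a highest signal of 93.8, beside 21 of 89 members and a highest signal of 325.3 for CA runs of the same range. That highest signal was of the nhr-255 region, whose summit lay within 100 bp of a tRNA gene, and the next was 278.6. None of these GA regions had a small RNA gene that close.

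**Figure D2:**
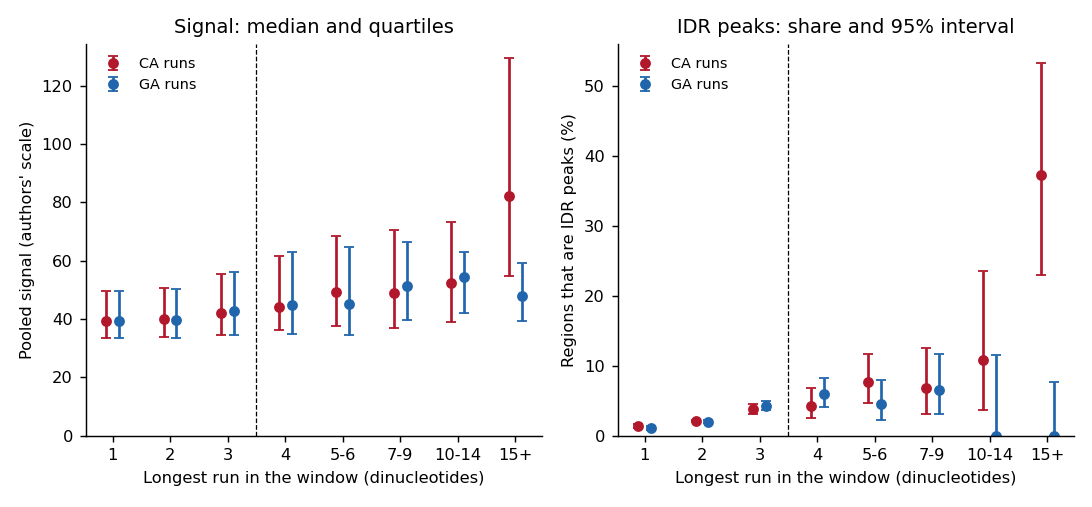
Left, median pooled signal with quartiles, on the authors' scale, and right, share of regions that are IDR peaks with exact 95% intervals, by the longest CA (red) or GA (blue) run in the window; the dashed line marks the rule's lower bound of 4. At 15 or more dinucleotides the CA regions have a median signal of 82.2 and an IDR share of 37.2%, and the GA regions 47.9 and 0%.

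Long tracts repeat their own sequence, so the uniqueness of the windows moved with the run length. The median share of unique 32-mers was 85.3% in members with 15 or more dinucleotides and 80.9% in GA regions of that length, against 100% in every shorter class of CA run. Of the 15 long-tract members with at least 90% unique 32-mers, 3 were IDR peaks, with a median signal of 61.6. Of the 28 others, 13 were, with a median signal of 85.8. Among all nuclear regions with under 90% unique 32-mers and no small RNA gene nearby, 48 of 2445 (1.96%) were IDR peaks. Of those with no CA or GA run of 4, 34 of 2342 (1.45%) were. Members with at least 90% unique 32-mers, whatever their run, gave 50 IDR peaks of 810 (6.17%, 4.62 to 8.06). That share was 3.51 times the share over all nuclear regions of the same uniqueness. How the authors treated reads that map to several places is not given in the sources used here, and its part in the values of the long tracts was not tested.

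Seen from the genome, most long CA tracts carried a region and most short ones did not. The nuclear assembly held 6040 runs of 4 or more CA dinucleotides, of which 1055 (17.5%) had a summit close enough for 4 of their dinucleotides to fall in its window. That share was 13.7% of the 3622 runs of exactly 4, 19.3% of runs of 5 or 6, 24.6% of runs of 7 to 9 and 32.8% of runs of 10 to 14. It was 66.2% (54.0 to 77.0) of runs of 15 or more, or 47 of 71. An IDR summit lay that close to 0.745% of runs of exactly 4 and to 15 of the 71 long tracts (21.1%, 12.3 to 32.4). Longer runs span more bases and so can be met by more summit positions, which these shares do not adjust for.

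The 5 members with the longest runs in their windows were those beside mvk-1, cyp-13B2, sto-4, Y55B1BR.8 and nhr-175, and all 5 were IDR peaks. Beside mvk-1, which encodes mevalonate kinase of the isoprenoid pathway, the run filled 75 dinucleotides of the window. The region had a pooled signal of 173.0, with ranks of 283 and 323 in replicates 1 and 2. The region of cyp-13B2, a cytochrome P450 gene, held a run of 67 and had a signal of 121.5, with ranks of 1196 and 613. The longest tract of the assembly, of 112 dinucleotides, ended in the window of a region near nhr-175, a nuclear hormone receptor gene, with a signal of 156.4 and ranks of 331 and 352. An intronic region near ast-1, an ETS transcription factor of neuronal differentiation, held a run of 53 and had 159.7, with ranks of 309 and 347.

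Members were spread over all 6 chromosomes and were densest on X. X held 197 of 864 members (22.8%, 20.04 to 25.8), against 17.3% of all nuclear regions, 19.5% of the CA runs of the assembly and 17.7% of its bases. The share was much the same just outside the rule, with 22.35% (20.86 to 23.91) of regions whose longest CA run was exactly 3. By run length, the members' share on X was 21.07% at exactly 4, 17.67% at 5 or 6 and 29.55% at 7 to 9. It was 32.61% at 10 to 14 and 37.21% at 15 or more. The density was 11.1 members per Mb on X, 10.4 on chromosome I, 9.03 on II, 8.63 on III, 6.57 on IV and 6.60 on V. Chromosomes IV and V also had the lowest density of CA runs, with 55.7 and 49.5 per Mb, while X had 66.4 and chromosome I 68.1. A run on X had a summit nearby in 19.5% of cases (17.2 to 21.9) and a run on an autosome in 17.0% (15.9 to 18.1). Among the autosomes, chromosome I had the highest such share, 20.7% (18.2 to 23.3), above that of X. In the lists of replicates 1 and 2, 22.5% and 23.7% of the members lay on X, against 17.3% and 17.6% of all regions. GA-repeat regions lay on X in 16.3% of cases and regions with both repeats in 7.77%. Along the chromosomes, 53.2% of members lay in the 25% of length at either end, beside 51.8% of the CA runs and 55.2% of all regions.

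The share on X was larger among the IDR members as a whole, but not in each band of ranks. Of the 66 IDR members, 29 lay on X (43.9%, 31.7 to 56.7), against 27.9% of all nuclear IDR peaks, while chromosome IV, with 115 members, had 1 IDR member. Put the other way, 29 of 197 members on X (14.7%, 10.1 to 20.4) and 37 of 667 on the autosomes (5.55%, 3.94 to 7.57) were IDR peaks, where all regions gave 3.86% and 2.09%. The difference was present without the members whose windows held runs of 15 or more, with 20 of 181 on X (11.0%, 6.88 to 16.5) and 30 of 640 on the autosomes. Overlapping regions were counted separately in these shares, such as the IDR peaks beside spat-3, sto-4 and ain-1 on X. At ranks 371 to 718, 20 of 86 regions on X (23.3%, 14.8 to 33.6) and 19 of 262 on the autosomes (7.25%, 4.42 to 11.1) were members. At ranks 186 to 370 the order was the other way, with 5 of 54 on X (9.26%, 3.07 to 20.3) and 17 of 131 on the autosomes (13.0%, 7.75 to 19.96), and these intervals overlap. The difference between X and the autosomes was wider in replicate 2 than in replicate 1, which was not tested. Of the members in the list of replicate 2, 29 of 196 on X (14.8%, 10.1 to 20.6) and 36 of 630 on the autosomes (5.71%, 4.03 to 7.82) were among the 718 strongest regions. In replicate 1 the counts were 16 of 178 (8.99%, 5.22 to 14.2) and 42 of 615 (6.83%, 4.97 to 9.12), and these intervals overlap. Of the GA-repeat regions on X, 11 of 163 (6.75%, 3.42 to 11.8) were IDR peaks. On the autosomes 41 of 834 GA-repeat regions (4.92%, 3.55 to 6.61) were, and these intervals overlap. The embryos were labelled mixed-sex, and the proportion of each sex was not measured here.

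**Figure D3:**
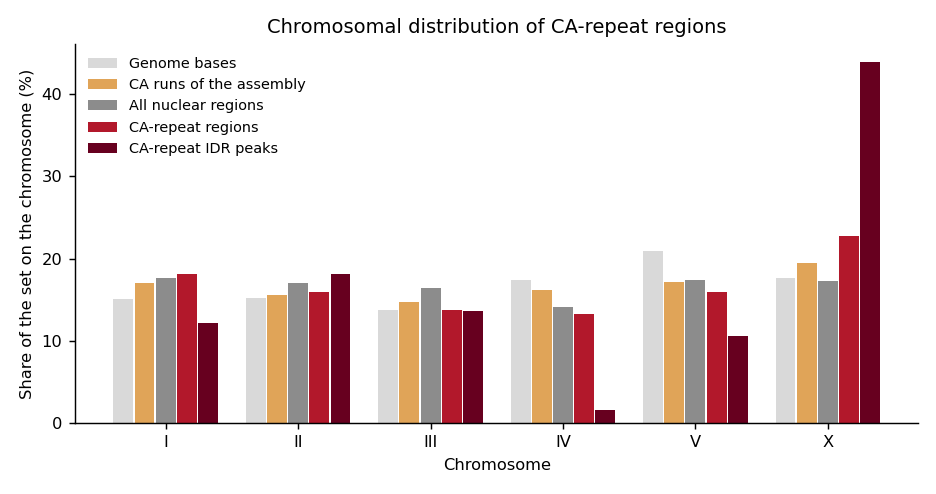
Share, in percent, of the genome's bases, of its CA runs, of all nuclear regions, of CA-repeat regions and of CA-repeat IDR peaks on each chromosome; the bars of 1 colour add up over the 6 chromosomes to the whole set. X holds 22.8% of the 864 CA-repeat regions and 43.9% of their 66 IDR peaks, and chromosome IV holds 1 IDR peak.

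Members lay mostly outside coding sequence. By the position of the summit, 269 members (31.1%) lay in introns, 252 (29.2%) in promoters, taken as the 1000 bp upstream of a protein-coding transcript start, and 239 (27.7%) between genes. Over all regions these shares were 25.4%, 24.9% and 17.7%. The CA runs of the assembly, placed by their centre, were closer to the members, with 29.2% in introns, 26.4% in promoters and 28.9% between genes. Coding exons held 40 members (4.63%, 3.33 to 6.25) against 26.3% of all regions and 6.16% of the CA runs. Exons of non-coding RNAs held 35 members, 3' UTRs 17 and 5' UTRs 12. Coding sequence is poor in CA repeats, with 0.388% of coding windows of the genome meeting the rule, and 0.507% of coding regions met it. In each other class the share of regions exceeded that of genome windows, with 3.38% against 1.23% in promoters, 3.53% against 1.08% in introns and 4.51% against 1.35% between genes. In the UTRs the intervals of the regions' shares were wide, as the plot of CA repeats by annotation class shows.

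**Figure D4:**
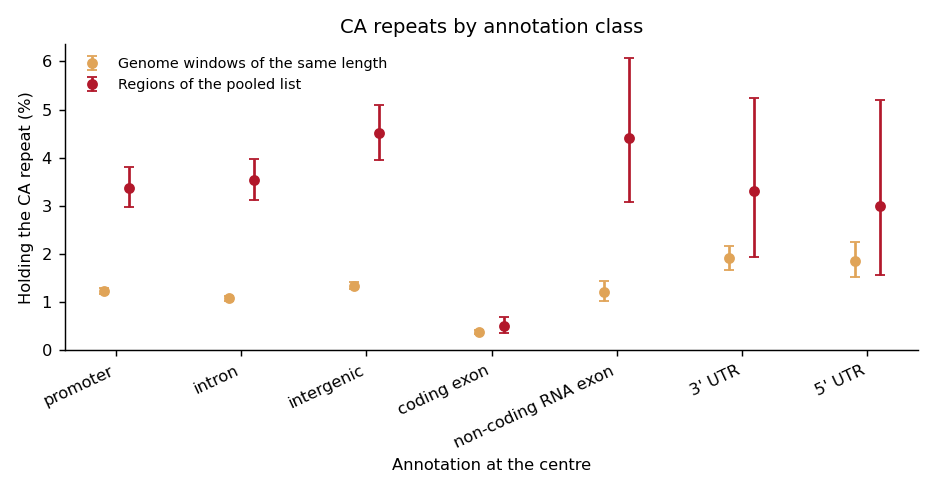
Share, in percent, of 201-bp genome windows (orange) and of regions of the pooled list (red) that hold the CA repeat, by the annotation at their centre; bars are exact 95% intervals. Regions exceed windows in promoters, introns and between genes, and both are lowest in coding exons, with 0.388% and 0.507%.

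Promoter members had the highest IDR share of the 3 large classes, with intervals that overlap. IDR peaks made up 30 of 252 promoter members (11.9%, 8.18 to 16.6), 16 of 269 intronic members (5.95%, 3.44 to 9.48) and 14 of 239 intergenic members (5.86%, 3.24 to 9.63), where all regions of these classes gave 4.53%, 2.43% and 1.85%. None of the 40 members in coding exons was an IDR peak (0 to 8.81%). Of the 780 members with a protein-coding transcript start within 5000 bp, 487 (62.4%, 58.9 to 65.8) lay upstream of it, against 44.4% of all such regions. The CA runs of the assembly were not counted in this way. Coding exons held 26.3% of all nuclear regions but 4.63% of members, and the upstream shares were not adjusted for this. In promoter members the CA strand followed the gene's strand in 126 of 235 cases (53.6%, 47.0 to 60.1). The run had no fixed distance to the summit: the centre of the nearest run lay within 20 bp of the summit in 184 members and 80 to 100 bp away in 152. For IDR members the counts were 15 and 9.

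The 201-bp windows of the members had a GC content of 45.1% ± 6.33 (SD over 864 regions), against 42.2% ± 7.11 over all nuclear regions. The exact POU octamer, ATGCAAAT on either strand, was present in 22 members (2.55%, 1.60 to 3.83) and in 1.84% of all nuclear windows. The 551 octamer regions had a median signal of 41.4, and 15 (2.72%) were IDR peaks. The tetramer CACA or its complement also occurred outside the runs in 87.5% of members, against 76.9% of all regions. None of the 5 regions assigned to ceh-6 itself was a member: their longest CA runs were of 2 or 3 dinucleotides.

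Most members were found in both replicates. The summits of 507 members (58.7%, 55.3 to 62.0) lay inside a region of each replicate list, against 42.5% of all nuclear regions, and 30 members lay in neither. A further 133 were covered in replicate 1 alone and 194 in replicate 2 alone. Of the 66 IDR members, 64 were in both lists, but 38 (57.6%, 44.8 to 69.7) were among the 718 strongest regions of both replicates, against 65.3% of all nuclear IDR peaks. Some therefore rested mainly on 1 library. A region near cey-1, a Y-box RNA-binding protein gene, ranked 270 in replicate 2 and 10191 in replicate 1. A region near aakg-4, a gene for a gamma subunit of AMP-activated kinase, ranked 341 in replicate 1 and 2860 in replicate 2. These examples were chosen after their values were seen.

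**Figure D5:**
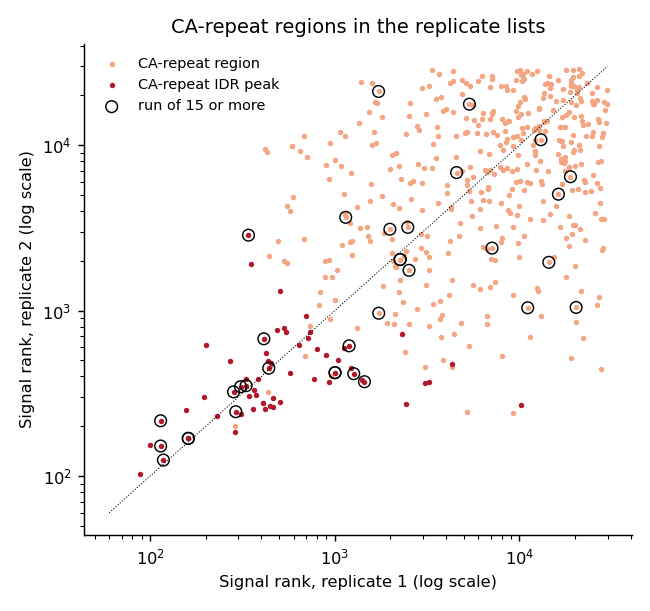
Signal rank of the 507 CA-repeat regions found in both replicate lists, replicate 1 on the horizontal and replicate 2 on the vertical axis, both on a log scale with 1 the strongest; dark points are IDR peaks, rings mark runs of 15 or more dinucleotides and the dotted line is equal rank. The strongest regions lie near the line, and weaker ones scatter widely to both sides of it.

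The members were assigned to 702 protein-coding genes, which is 5.90% of the 11904 genes with any region. Of these, 630 had 1 member and 66 had 2. The 6 genes with 3 were daf-2 (the insulin and IGF receptor), efn-4 (an ephrin), hda-4 (a class II histone deacetylase), kin-1 (the catalytic subunit of protein kinase A), unc-73 (a Trio-type guanine nucleotide exchange factor) and T04B8.5. Near hda-4, 1 member was an IDR peak, with a signal of 135.9 and ranks of 2420 and 273 in replicates 1 and 2.

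The members were also counted by gene family. Over all genes 2.82% of assigned regions were members. Among genes of the Wnt pathway the count was 11 of 124 regions (8.87%, 4.51 to 15.3), and among genes of axon guidance 19 of 234 (8.12%, 4.96 to 12.4). Muscle structure genes gave 11 of 177 (6.21%, 3.14 to 10.8), ion channel genes 14 of 291 (4.81%) and homeobox genes 12 of 275 (4.36%, 2.27 to 7.50). Chemoreceptor genes gave 8 of 700 (1.14%, 0.495 to 2.24), collagen genes 3 of 240 and ribosomal protein genes 1 of 110. Excretory canal and V-ATPase genes gave 7 of 151 (4.64%, 1.88 to 9.32), neuropeptide genes 3 of 183 and nuclear hormone receptor genes 9 of 336 (2.68%). GATA factor genes gave 3 of 47 and cell cycle genes 3 of 97, while basic helix-loop-helix, SOX and TCF, histone and dosage compensation genes gave 1 each, of 76, 33, 49 and 33 regions. The basic helix-loop-helix list did not hold mdl-1, a Mad-type gene of that class with a member 109 bp upstream of its start that was an IDR peak, with a signal of 109.6 and ranks of 735 and 747 in replicates 1 and 2; it was named after its values were seen. These are counts over lists of genes, which were not adjusted for how many bases of non-coding sequence a gene has.

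None of the members near Wnt, axon guidance, muscle, homeobox or ion channel genes was an IDR peak. These lists are short, and IDR peaks made up 7.64% of all members and 2.40% of all nuclear regions. In the Wnt list the strongest lay 208 bp upstream of lit-1, the Nemo-like kinase that phosphorylates POP-1, with a pooled signal of 93.9. Its ranks were far apart, 11435 in replicate 1 and 696 in replicate 2. The Frizzled receptor genes lin-17 and mig-1 had intronic members of 52.6 and 45.0. For pop-1, the TCF factor of the pathway, the member had 37.1 and lay in an exon of a non-coding RNA. In the axon guidance list, unc-73 had 80.6 and ptp-3, a LAR-type receptor phosphatase, had 80.2, with no region of replicate 1 over the ptp-3 summit. The promoter of efn-4 had 74.4. Among muscle genes, mlc-3, a myosin light chain, had 84.4 and act-4, an actin with a run of 18 in its promoter, had 70.5. The intestinal actin gene act-5, which the actin pattern of that list also took, had 55.1.

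In the nuclear hormone receptor list, nhr-40 came after nhr-255 and nhr-175, with a pooled signal of 94.8 and ranks of 2350 and 1122 in replicates 1 and 2. The GATA-type gene egl-27 had 84.4 in an intron and egl-18 had 55.3. The homeobox genes ceh-30, unc-39 and ceh-58 had 77.3, 73.3 and 73.0, and none of these 3 summits lay in a region of replicate 1, while replicate 2 ranked them 1056, 816 and 829. The Myc-related mml-1 had 56.8. In the excretory canal list the highest was an intronic region of unc-53, a cytoskeletal regulator of cell migration and canal outgrowth, which was the weakest nuclear IDR peak, with a signal of 105.7 and ranks of 699 and 934. The promoter of inx-12, an innexin gene, had 90.7, and a region near unc-71, an ADAM protein gene, had 84.5.

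In the remaining lists, the insulin-like gene ins-39 on X had an IDR peak in its promoter with a signal of 108.9 and ranks of 4296 and 474. The other neuropeptide genes with a member, nlp-79 and flp-16, had 36.7 and 32.3. Among ion channel genes, lgc-38, a ligand-gated channel, had 79.1 on a tract of 58 dinucleotides, irk-1, an inward rectifier, had 64.1 and unc-49, the GABA receptor, had 62.5. The chemoreceptor gene srd-32 had 75.8, srab-6 had 70.1 and str-245 had 55.4. Collagen genes ranged from 80.2 at sqt-3 through 37.5 at sqt-1 to 30.6 at dpy-3. The cell cycle genes cyd-1, efl-3 and cdk-4, which encode cyclin D, an E2F factor and the cyclin D kinase, had 67.1, 62.3 and 55.1. The condensin gene dpy-27 of the dosage compensation complex had 80.3 in its promoter, with ranks of 678 and 11419. The ribosomal protein gene rpl-11.1 had 34.2 and the histone gene his-16 had 46.7.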

How the data were processed

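Per the labels, the 2 replicates were chromatin immunoprecipitations of tagged CEH-6, sheared to 200 to 800 bp. The authors deposited 1 region list per replicate, 1 on pooled reads and 1 of IDR peaks, each against 1 control. The deposited value of a region is a signal whose scale, like the peak caller, aligner and read filters, is not given in the sources used here. It served to rank regions and to compare levels within a list. Whether the levels of different lists share 1 scale is unknown. The members and all gene lists were chosen with earlier results of these data known.

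Summits were placed on the RefSeq sequence of WBcel235 and on Ensembl release 115. Promoters took precedence over exons, exons over introns and introns over exons of non-coding RNAs, and what was left was intergenic. A summit was given the closest transcript start of a protein-coding gene within 5000 bp. Uniqueness is the share of a window's 32-mers that occur once in the nuclear genome. A region is in a replicate list if its pooled summit lies inside a region there. Mitochondrial regions, 23 in the pooled list, were left out.

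Motifs searched on both strands were CACACACA, GAGAGAGA, CACA and ATGCAAAT. Shares carry exact (Clopper-Pearson) 95% intervals. Named genes are those of the 20 strongest members, the 5 with the longest runs, the 5 strongest on X and up to 3 per gene family, of 17 families, plus ceh-6; others are marked as chosen later or belong to genes with 3 members. The family of chemoreceptors was corrected after the values were seen, because its name pattern had taken in src-1 and src-2, which encode tyrosine kinases. Search and intervals were tested on simulated data. Python 3.11.15 with pandas 2.3.3, numpy 2.4.6 and scipy 1.17.1 was used.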

Additional observations from a re-analysis of the deposited data

How the results depend on the processing

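The share of members on X stayed between 21.2% and 25.4% under every alternative run, against 22.8% in the main setting, and no result changed direction. A window of 50 bp to each side took 485 regions with an IDR ratio (share of members over share of all regions) of 4.05. A window of 200 bp took 1375, with a ratio of 2.46, 20.8% in the top 10% of signal ranks and 54.4% in both replicate lists. Runs of at least 5 took 470 regions (ratio 4.35, top ranks 30.4%, both lists 64.3%), and runs of at least 6 took 323 (4.91, 34.1% and 66.9%). The ratio was 4.60 without regions near small RNA genes and 2.46 with neighbours within 1000 bp joined. Promoters of 500 bp held 17.3% of members and promoters of 2000 bp 47.5%. Leaving out 1 replicate gave 793 to 826 members, ratios of 3.05 to 3.29, 22.5% to 23.7% on X, 29.3% in promoters, 21.2% to 23.4% in the top ranks and 1.14% to 1.33% near small RNA genes. Leaving out runs of 15 or more, chosen after seeing the data, gave a ratio of 2.54, 22.0% on X and 23.3% in the top ranks. No paired analysis was possible because both replicates belong to 1 group. The unknown read depth limits what a low rank in 1 replicate shows.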
